A study of Mus musculus with 6 samples.

Results

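The unfolded protein response of the endoplasmic reticulum (ER) was followed in mouse liver through 10 genes. They comprise 2 stress sensors (Ern1 and Atf6), the transcription factor Xbp1, and 7 genes that these arms are known to induce (Herpud1, Edem1, Pdia4, Pdia6, Sdf2l1, Creld2 and Manf). They were taken by name as genes of the Xbp1, Ern1 and Atf6 arms. All 10 were among the 45706 genes of the deposited count table, and all 10 were among the 14069 genes that passed the filter on low counts. The livers came from 3 wild-type samples (WT 1 to WT 3) and 3 knockout samples of Entpd8 (KO 1 to KO 3), with no other genotype, treatment or time point named in the labels. Entpd8 encodes NTPDase8, an enzyme on the cell surface that breaks down extracellular nucleotides, and the series asks about its part in liver ischemia. The labels name a specific pathogen-free facility, but not whether these livers had been made ischemic, nor the age, sex, strain or number of the mice, nor how the allele was made or in which cells it acts. Nothing in them says that samples of 1 genotype are separate animals, so p-values measure only the spread between these samples.

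Proteins that enter the ER are folded there by chaperones and by enzymes that form disulfide bonds, and the liver, which secretes most plasma proteins, uses this route heavily. When unfolded protein builds up, the sensor encoded by Ern1 splices Xbp1 RNA into the form that makes the active factor, and Atf6 is moved to the Golgi and cut to release another. A separate sensor, Perk (gene Eif2ak3), lowers protein synthesis and raises Atf4. The factors released by the first 2 sensors act with NF-Y at the ER stress response element (ERSE) of genes for chaperones, disulfide isomerases and the machinery that removes misfolded protein. Counts per gene do not separate spliced from unspliced Xbp1 RNA, and cleavage of Atf6 is not seen in RNA, so the values below are transcript levels and not the activity of either sensor.

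Library totals ran from 32768774 to 46473531 counts. Entpd8, the targeted gene, stood at 39.0, 22.4 and 56.5 CPM (counts scaled to a common total per library) in WT 1, WT 2 and WT 3 and at 0.382, 0.723 and 1.09 CPM in KO 1, KO 2 and KO 3, which goes with the labels (log2 fold change −5.72 ± 0.48 SE, adjusted p = 0.00151 in edgeR's quasi-likelihood test with Benjamini-Hochberg adjustment, which is the test used throughout). The first principal component held 52.8% of the variance and split the genotypes, and the second, with 16.9%, set WT 2 apart from the other libraries. Mitochondrially encoded genes held 7.52% ± 0.924 of counts in wild type and 10.9% ± 0.809 in knockout (SD, n = 3 each). All 8 hepatocyte markers were detected at high levels, summing to between 68472 and 97109 CPM per library, and 0 of the 8 passed in edgeR (2 at an unadjusted p under 0.05, 2 in DESeq2, 0 in limma voom).

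None of the 10 genes passed the test of genotype in edgeR. There 0 of 10 passed an adjusted p of 0.05, where 20.4% of all genes tested did (9.8% higher and 10.6% lower in knockout), and 1 of 10 (Creld2) had an unadjusted p under 0.05, where 36.0% did. DESeq2 called 1 of 10, Creld2, as lower in knockout (adjusted p = 0.0204), against 25.8% of all genes in either direction and 12.3% as lower, and limma voom called 0. The log2 fold change of knockout over wild type was above 0 for 5 of the genes and below 0 for the other 5, with a median of −0.03 beside −0.02 over all genes tested. In 9 of the 10 the libraries of the 2 genotypes overlapped, and only Edem1 had all 3 knockout libraries below all 3 wild-type ones, while 40.7% of all genes tested showed no overlap in 1 direction or the other and 22.0% did so as lower. In these bulk samples, fewer cells of a type and less RNA per cell cannot be told apart.

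**Figure D1:**
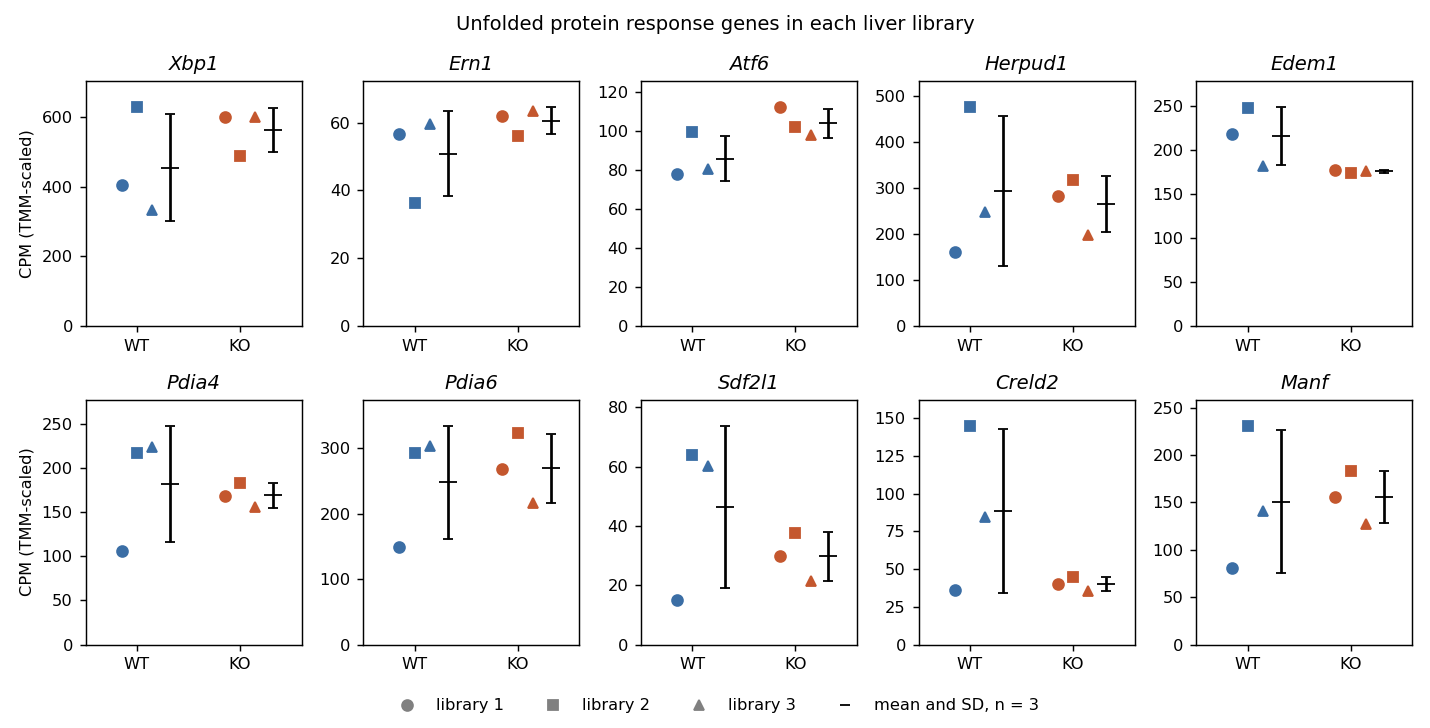
Level of each of the 10 genes in every library, in CPM with totals scaled by TMM (vertical axes start at 0), for wild type (WT, blue) and knockout (KO, orange). Circles, squares and triangles are libraries 1, 2 and 3, and bars give the mean ± SD (n = 3). The bars of the wild-type libraries are longer than those of the knockout libraries for every gene.

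Ern1 (chr11:106394650-106487852, minus strand of GRCm38) encodes the sensor kinase and RNase of the most conserved arm. It was measured at 56.7, 36.4 and 59.5 CPM in WT 1, WT 2 and WT 3 and at 62.1, 56.0 and 63.5 CPM in KO 1, KO 2 and KO 3. WT 2 was the low library, and the other 5 lay within a narrow band. The log2 fold change was 0.25 ± 0.18 SE (95% interval −0.17 to 0.67, adjusted p = 0.367 in edgeR).

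Xbp1 (chr11:5520659-5525893, plus strand), whose RNA is the main substrate of that RNase, stood at 403, 627 and 333 CPM in the 3 wild-type libraries and at 598, 488 and 599 CPM in the 3 knockout libraries. WT 2 was the highest of all 6 libraries and WT 3 the lowest, so the knockout values fell inside the wild-type range. The means were 454 ± 154 CPM for wild type and 562 ± 63.8 CPM for knockout (SD, n = 3 each), with a log2 fold change of 0.31 ± 0.24 SE (95% interval −0.24 to 0.85, adjusted p = 0.393 in edgeR). The call depended on 1 library: without WT 2 the log2 fold change was 0.61 and passed (adjusted p = 0.0429 in edgeR), in a fit that called 21.3% of genes, 9.6% as higher in knockout.

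Atf6 (chr1:170704674-170867771, minus strand) encodes the sensor that is itself a transcription factor. Its wild-type values were 77.9, 99.3 and 80.4 CPM and its knockout values 112, 102 and 97.8 CPM. Only KO 3 lay below the highest wild-type library, WT 2. The log2 fold change of 0.28 ± 0.13 SE did not pass (95% interval −0.03 to 0.58, adjusted p = 0.174 in edgeR), and without WT 2 it was 0.39 with an adjusted p of 0.0526 in edgeR. All 3 genes of this upstream group thus had a fold change above 0, with 0 of 3 past the threshold in edgeR, DESeq2 and limma voom and 0 at an unadjusted p under 0.05.

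Herpud1 and Edem1 serve ER-associated degradation, the route by which misfolded protein is taken out of the ER and destroyed. Herpud1 (chr8:94386438-94395377, plus strand), a membrane protein that helps assemble the degradation complex, was at 160.1, 476 and 247 CPM in WT 1, WT 2 and WT 3 and at 282, 316 and 198 CPM in KO 1, KO 2 and KO 3. The highest and the lowest library were both wild type. The log2 fold change was −0.15 ± 0.38 SE (95% interval −1.05 to 0.75, adjusted p = 0.818 in edgeR), and it was 0.38 without WT 2.

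Edem1 (chr6:108828641-108859356, plus strand), a mannosidase-like protein that marks misfolded glycoproteins for removal, was at 218, 247 and 182 CPM in wild type and at 177, 174 and 176 CPM in knockout. The 3 knockout libraries were nearly equal, and the nearest wild-type library, WT 3, was only slightly above them. The means were 215 ± 32.7 CPM and 176 ± 1.71 CPM (SD, n = 3 each), and the log2 fold change of −0.29 ± 0.14 SE did not pass (95% interval −0.62 to 0.03, adjusted p = 0.174 in edgeR).

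Pdia4 and Pdia6 encode protein disulfide isomerases, which make and rearrange disulfide bonds in the ER lumen. Pdia4 (chr6:47796141-47813430, minus strand) was at 106, 217 and 224 CPM in the wild-type libraries and at 168, 184 and 156 CPM in the knockout libraries. Pdia6 (chr12:17266545-17284770, plus strand) was at 149, 293 and 303 CPM and at 269, 323 and 217 CPM. In both genes WT 1 was the lowest of the 6 libraries, and WT 2 and WT 3 were close to each other. The log2 fold changes were −0.11 ± 0.26 SE for Pdia4 (95% interval −0.72 to 0.50, adjusted p = 0.805 in edgeR) and 0.12 ± 0.28 SE for Pdia6 (95% interval −0.53 to 0.77, adjusted p = 0.795 in edgeR).

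Sdf2l1, Creld2 and Manf encode small proteins of the ER lumen. Sdf2l1 (chr16:17130138-17132383, minus strand), a partner of the chaperone Hspa5 and its DnaJ co-chaperones, was at 14.9, 64.1 and 60.3 CPM in WT 1, WT 2 and WT 3 and at 29.9, 37.7 and 21.5 CPM in KO 1, KO 2 and KO 3. WT 1 was the lowest library of the 6, and the other 2 wild-type libraries were the highest. The log2 fold change of −0.65 ± 0.51 SE did not pass (95% interval −1.85 to 0.56, adjusted p = 0.408 in edgeR).

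Creld2 (chr15:88819646-88826683, plus strand), an ER protein that binds disulfide isomerases, had the lowest p of the 10. It stood at 36.4, 145 and 84.8 CPM in wild type and at 39.8, 44.9 and 35.4 CPM in knockout. WT 2 and WT 3 were above every knockout library, and WT 1 lay among them. The means were 88.7 ± 54.4 CPM and 40.02 ± 4.72 CPM (SD, n = 3 each), and the log2 fold change was −1.15 ± 0.44 SE (95% interval −2.20 to −0.10, unadjusted p = 0.0358, adjusted p = 0.111 in edgeR). Without WT 1, Creld2 (−1.53, adjusted p = 0.0167) and Sdf2l1 (−1.07, adjusted p = 0.0322) both passed as lower in knockout in edgeR, in a fit that called 11.5% of genes, 5.03% as lower.

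Manf (chr9:106838312-106891979, minus strand), a protein of the ER lumen that can be secreted under stress, was at 80.4, 231 and 141 CPM in wild type and at 156, 183 and 128 CPM in knockout. Its means of 151 ± 75.7 CPM and 156 ± 27.8 CPM (SD, n = 3 each) were close, and all 3 knockout libraries lay between WT 1 and WT 2. The log2 fold change was 0.05 ± 0.35 SE (95% interval −0.78 to 0.87, adjusted p = 0.942 in edgeR). Exons of Manf overlap exons of 3 other genes that passed the filter, by up to 166 bases, the most abundant being Dcaf1 at a mean of 22.3 CPM, so a small share of its counts could belong to them.

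**Figure D2:**
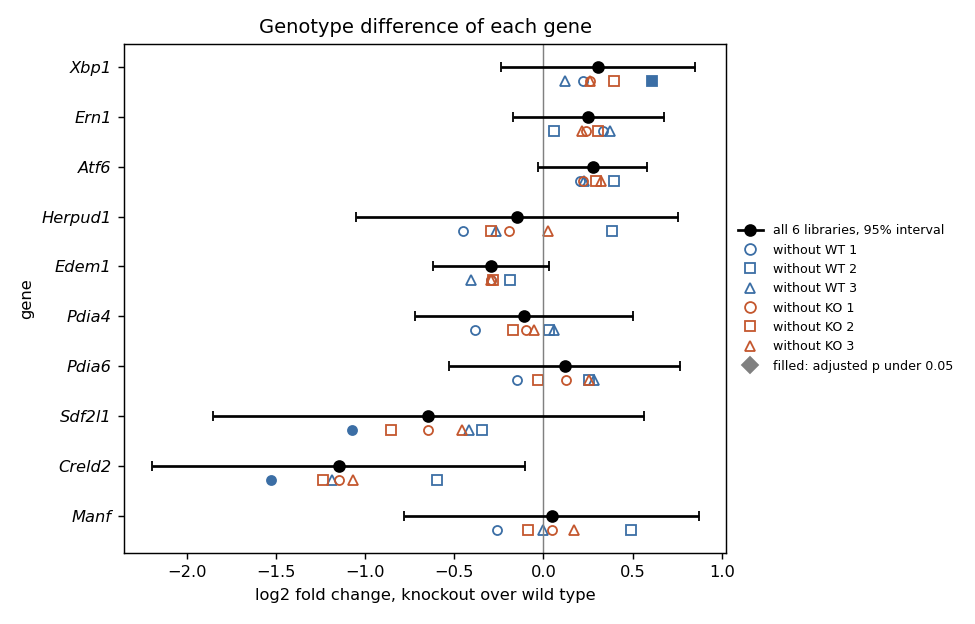
Log2 fold change of knockout over wild type for each gene, from edgeR. Black points with bars give all 6 libraries with the 95% interval, and coloured symbols give the value when 1 library is left out, filled where the adjusted p was under 0.05. Only the interval of Creld2 lies wholly on 1 side of 0, and the filled symbols are Xbp1 without WT 2 and Sdf2l1 and Creld2 without WT 1.

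These genes spread more among the wild-type libraries than among the knockout libraries. The highest wild-type library exceeded the lowest 4.29-fold for Sdf2l1, 3.98-fold for Creld2, 2.97-fold for Herpud1, 2.87-fold for Manf, 2.10-fold for Pdia4 and 2.04-fold for Pdia6. In knockout the same ratios were 1.76 for Sdf2l1, 1.27 for Creld2, 1.59 for Herpud1, 1.44 for Manf, 1.18 for Pdia4 and 1.49 for Pdia6. The wild-type range was larger than the knockout range in 10 of 10 genes, beside 8667 of all 14069 genes tested (61.6%). The median range on the log2 scale was 1.05 in wild type and 0.32 in knockout for the 10 genes, and 0.45 and 0.35 for all genes tested. In wider ER lists without the 10 genes, it was 0.62 and 0.22 for chaperones. The Perk and Atf4 arm had 0.66 and 0.31, ER-associated degradation 0.23 and 0.23, and the RNAs of Ern1 decay 0.39 and 0.45. A wild-type range as large as that of Sdf2l1 was seen in 3.05% of all genes tested, as large as that of Creld2 in 3.55%, as large as that of Herpud1 in 6.67% and as large as that of Manf in 7.26%. The 3 narrowest of the 10, Ern1, Edem1 and Atf6, were not unusual, with 30.3%, 50.6% and 61.9% of genes at least as variable. The median wild-type range was 0.58 without WT 1, 0.72 without WT 2 and 1.002 without WT 3, each over the 2 libraries left. Leaving out a library can only keep or shrink a range, so these lower values are in part built in. No test of the difference in spread was made.

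**Figure D3:**
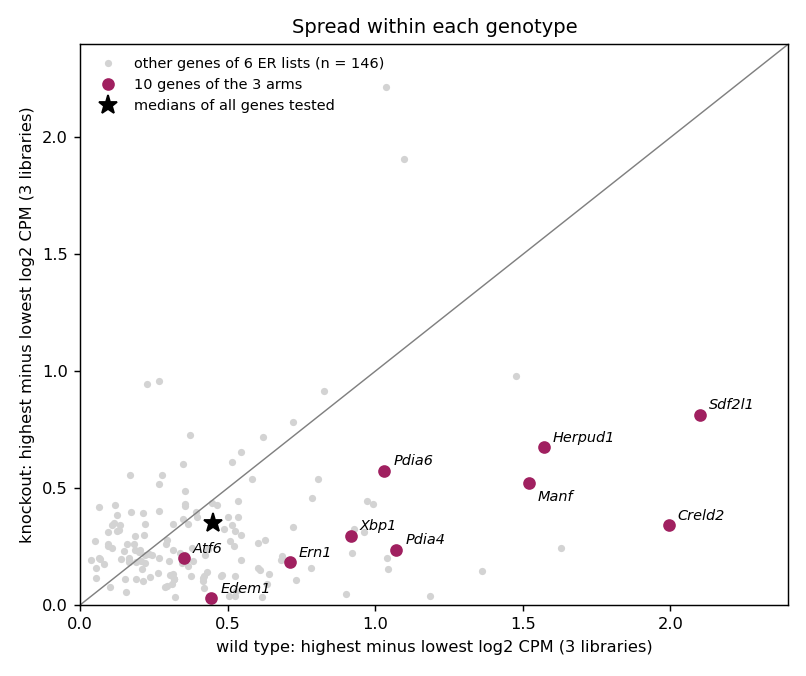
Range over the 3 wild-type libraries (horizontal) against the range over the 3 knockout libraries (vertical), each as highest minus lowest log2 CPM, for the 10 genes (red) and 146 other genes of 6 ER lists (grey). The line marks equal ranges, the star the medians of all genes tested, and Derl3, with a wild-type range of 6.27, lies beyond the axis. All 10 genes lie below the line.

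The wild-type libraries were ordered alike for most target genes. WT 1 was the lowest wild-type library for 7 of the 10 genes and for 6 of the 7 targets (all but Edem1), and it was lowest for 4051 of the 14069 genes tested. WT 2 was the highest for 7 of the 10 and WT 3 for the other 3, beside 4871 and 4885 of all genes tested. With each gene centred on its mean log2 CPM over the 6 libraries, the 7 targets averaged −0.66, 0.68 and 0.27 in WT 1, WT 2 and WT 3 and −0.07, 0.11 and −0.34 in KO 1, KO 2 and KO 3. The averages of Ern1, Xbp1 and Atf6 were −0.17, −0.06 and −0.23 in wild type and 0.24, 0.04 and 0.18 in knockout. These 3 genes did not share 1 order of the wild-type libraries. Atf6 (−0.27, 0.08 and −0.23 in WT 1, WT 2 and WT 3) had the same order of wild-type libraries as the target average, Xbp1 (−0.29, 0.34 and −0.57) shared only its high WT 2, and Ern1 (0.05, −0.59 and 0.12) was lowest in WT 2. Over all genes tested the averages stayed between −0.07 and 0.05.

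Other measures also differed between these libraries. In wild type, the share of mitochondrially encoded counts had the same order of libraries as the target average. The Kupffer cell and macrophage sum had the reverse order. The hepatocyte and neutrophil sums had neither order, and WT 1 was the highest wild-type library in both. The hepatocyte markers summed to 97109, 71424 and 68472 CPM in WT 1, WT 2 and WT 3. The summed level of the 9 Kupffer cell and macrophage markers was 226, 98.1 and 174 CPM in WT 1, WT 2 and WT 3, with WT 2 the lowest wild-type library for 9 of 9, and 67.1, 65.8 and 56.0 CPM in knockout, where 5 of 9 passed as lower in edgeR (7 in DESeq2, 4 in limma voom), beside 10.6% of all genes. The neutrophil markers (4 of 6 tested, 0 passed in edgeR, DESeq2 and limma voom, 0 at an unadjusted p under 0.05) summed to 94.97, 31.1 and 13.0 CPM in wild type and to 64.0, 89.0 and 81.9 CPM in knockout. The share of mitochondrially encoded counts was 6.52%, 8.34% and 7.72% in WT 1, WT 2 and WT 3. Their part in the spread of the target genes was not tested.

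**Figure D4:**
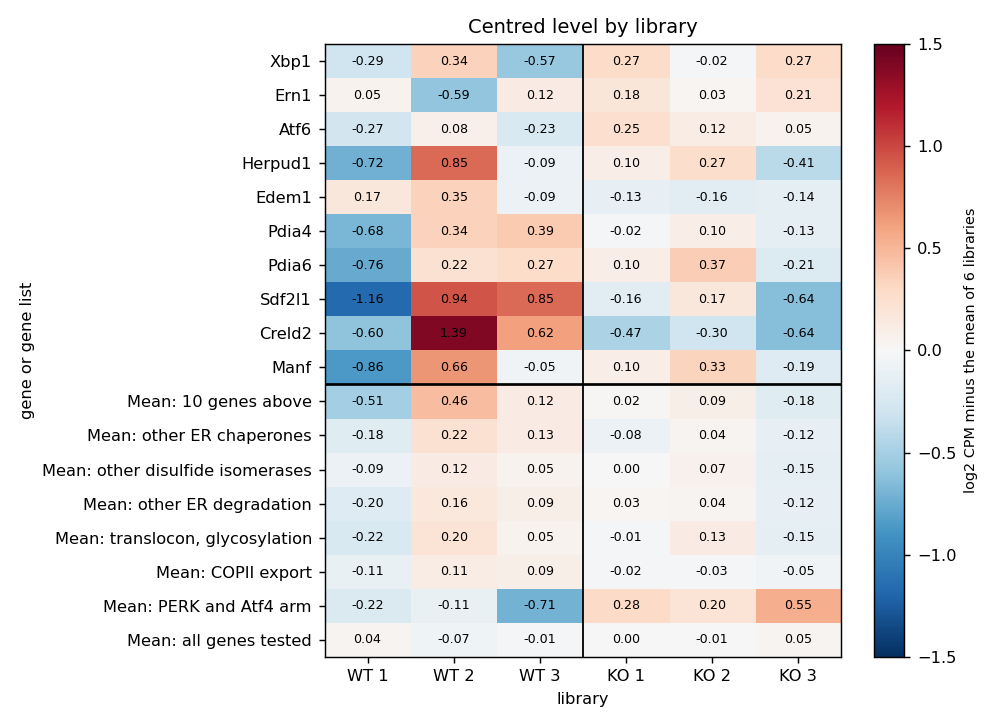
Level of each gene in each library as log2 CPM minus its mean over the 6 libraries (colour and printed value), with the means of the 10 genes, of other genes of 6 ER and stress lists, and of all genes tested below. WT 1 is blue and WT 2 red for most target genes, and the knockout columns are mostly paler (Sdf2l1 and Creld2 reach −0.64 in KO 3). The lower rows for chaperones, disulfide isomerases, degradation, translocon and COPII genes show the same order of wild-type libraries at a smaller scale. The row of the Perk and Atf4 arm does not, with −0.22, −0.11 and −0.71 in WT 1, WT 2 and WT 3.

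Some of the 10 promoters carry the ERSE itself, and 3 stretches are shown because Creld2 and Pdia6 hold an exact match to the element and Herpud1 holds its shorter relative, ERSE-II. The search covered the 250 bases before the RefSeq start site (GRCm38.p6), on both strands, in the 8 genes with an entry in the promoter table (all but Atf6 and Manf). ERSE was searched as CCAAT and CCACG with any 9 bases between them, and ERSE-II as ATTGG and CCACG with any 1 base between them. Each stretch is written on the gene's own plus strand with the match in capitals. The match in Creld2 reads on the other strand, 126 to 108 bases before the start, that in Pdia6 lies 98 to 80 bases before it, and that in Herpud1 52 to 42 bases before it.
Creld2, chr15:88819480-88819578: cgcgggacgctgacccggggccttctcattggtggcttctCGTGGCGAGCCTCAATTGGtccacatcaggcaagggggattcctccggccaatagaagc
Pdia6, chr12:17266451-17266549: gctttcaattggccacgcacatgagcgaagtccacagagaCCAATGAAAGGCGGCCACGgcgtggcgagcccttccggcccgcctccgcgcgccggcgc
Herpud1, chr8:94386337-94386427: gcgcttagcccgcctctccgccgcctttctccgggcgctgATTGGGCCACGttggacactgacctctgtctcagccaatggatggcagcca

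ERSE was found in 2 of the 8 promoters and in 37 of all 32851 promoters of the table (0.113%), and ERSE-II in 1 of 8 and in 10 of all (0.0304%). Allowing 1 mismatch in ERSE, an option added after the data were seen, also took in Pdia4, whose site 108 to 90 bases before the start reads AGTGGCAGCCCGTGATTGG, and raised the share of all promoters to 1.32%. The UPRE letters TGACGTGG, a site bound by Xbp1, were in 0 of the 8 and in 0.563% of all promoters, and the CRE letters TGACGTCA, which share their first 6 bases with the UPRE, were in 0 of the 8 and in 1.55%. The 3 genes with exact matches did not move as 1 group between genotypes: the log2 fold changes were −1.15 for Creld2, 0.12 for Pdia6 and −0.15 for Herpud1, none past the threshold. In all 3, WT 1 was the lowest wild-type library.

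A further 42 genes have ERSE or ERSE-II in the same window, of which 21 passed the filter on low counts. They include Hspa5 (BiP, the main ER chaperone of the Hsp70 family), Hsp90b1, Calr, Canx, Dnajc3, Derl3 and the degradation ligase Syvn1. Of the 21, 2 rose in knockout and 2 fell, together 19.0%, close to the 20.4% of all genes, and their median log2 fold change was −0.22. The 4 are named after their values were seen: Lgalsl (1.11, adjusted p = 0.0112) and Hnrnpa3 (0.53, adjusted p = 0.0383) were higher, and Alg12 (−0.86, adjusted p = 0.0445) and Acnat2 (−1.75, adjusted p = 0.0175) were lower, all in edgeR. Alg12, a mannosyltransferase of N-glycan assembly, lies next to Creld2 on the opposite strand (chr15:88805244-88819318) and so has the same ERSE upstream of it. Its levels were 6.23, 10.5 and 12.1 CPM in wild type and 4.63, 5.46 and 5.80 CPM in knockout. Leaving out 1 library ended the call for Hnrnpa3 with any but WT 3 (adjusted p up to 0.150), for Alg12 with any but WT 1 (up to 0.159; it also missed the threshold in limma voom) and for Acnat2 with KO 1 (0.0768), while Lgalsl passed in all 6 edgeR fits.

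Among the main ERSE genes WT 1 was again the lowest wild-type library. Hspa5 was at 853, 1939.5 and 1155 CPM in WT 1, WT 2 and WT 3 and at 1839, 1854 and 1809 CPM in the knockout libraries, with a log2 fold change of 0.48 ± 0.28 SE (adjusted p = 0.256 in edgeR). Its knockout libraries were nearly equal and sat just under WT 2. Hsp90b1, the ER member of the Hsp90 family, was at 605, 1247 and 1133 CPM in wild type and at 837, 852 and 767 CPM in knockout (−0.28 ± 0.26 SE, adjusted p = 0.467 in edgeR). Syvn1 was at 77.6, 240.1 and 125 CPM in wild type and at 77.5, 73.3 and 86.6 CPM in knockout (−0.90 ± 0.37 SE, adjusted p = 0.126 in edgeR), with WT 2 high as in Creld2. Averaged over the 21 ERSE genes, the centred levels were −0.25, 0.31 and 0.16 in wild type and −0.04, −0.02 and −0.16 in knockout. These averages lean on Derl3, which had 1 count in WT 1 and centred levels of −3.63 in WT 1 and 2.65 in WT 3. How far WT 1 lay below the other libraries is therefore not settled by them. By count of genes, WT 1 was the lowest wild-type library for 12 of 21.

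Levels were compared between genes only per length, as TPM, a level scaled for length and total and computed here from the counts and the mean annotated transcript length. In wild type the order was Xbp1 (468 ± 132 TPM), Herpud1 (347 ± 177), Pdia6 (285 ± 106), Manf (238 ± 111), Pdia4 (178 ± 68.4), Edem1 (105 ± 9.52), Creld2 (85.8 ± 49.5), Sdf2l1 (56.1 ± 33.4), Ern1 (25.2 ± 7.46) and Atf6 (24.4 ± 2.51; all SD, n = 3). Each gene's range over the wild-type libraries overlapped that of its neighbour in this order. Within each wild-type library, at the mean lengths used here, Xbp1 was above Herpud1, Manf above Pdia4 and Creld2 above Sdf2l1. The other adjacent pairs changed order between wild-type libraries. The ends of the order were separate: Xbp1 ranged from 372 to 619 TPM and Atf6 from 21.8 to 26.8 TPM. In knockout Xbp1 stood at 533 ± 88.2 TPM, and Creld2 (35.2 ± 1.98), Sdf2l1 (32.01 ± 6.89), Ern1 (27.0 ± 3.37) and Atf6 (26.9 ± 1.97) lay close together at the lower end (SD, n = 3).

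Among the 10 genes, the pairs with the most alike profiles over the 6 libraries were Herpud1 and Manf (root mean square distance of centred log2 CPM 0.13), Pdia4 and Pdia6 (0.14) and Xbp1 and Atf6 (0.21), and the least alike pair was Ern1 and Creld2 (0.99). Of 6000 other genes compared over the 6 libraries, the 5 nearest to the mean profile of the 10 included Serp1 (0.0870), Sec61a1 (0.109), Ddx49 (0.109) and Ufm1 (0.115), against a median distance of 0.353. Serp1 encodes a small ER membrane protein of the translocation machinery, Sec61a1 the channel of the translocon, and Ufm1 a ubiquitin-like modifier. Serp1 was at 292, 478 and 392 CPM in wild type and at 379, 374 and 336 CPM in knockout, and Sec61a1 at 183, 278 and 239.6 CPM and at 234, 243 and 202 CPM. The choice of these genes by profile fixes their order of libraries and their small genotype difference, so neither is a result.

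The wider ER machinery was counted in 8 lists, the 10 genes left out. Over all lists, 16 of 181 genes tested rose in knockout and 14 fell, together 16.6% beside the 20.4% of all genes, with a median log2 fold change of 0.01. Each list is described with its own count, and many of these calls ended when 1 library was left out. Of the 30 genes, 12 still passed in edgeR without WT 1, 21 without WT 2, 16 without WT 3, 3 without KO 1, 16 without KO 2 and 16 without KO 3.

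**Figure D5:**
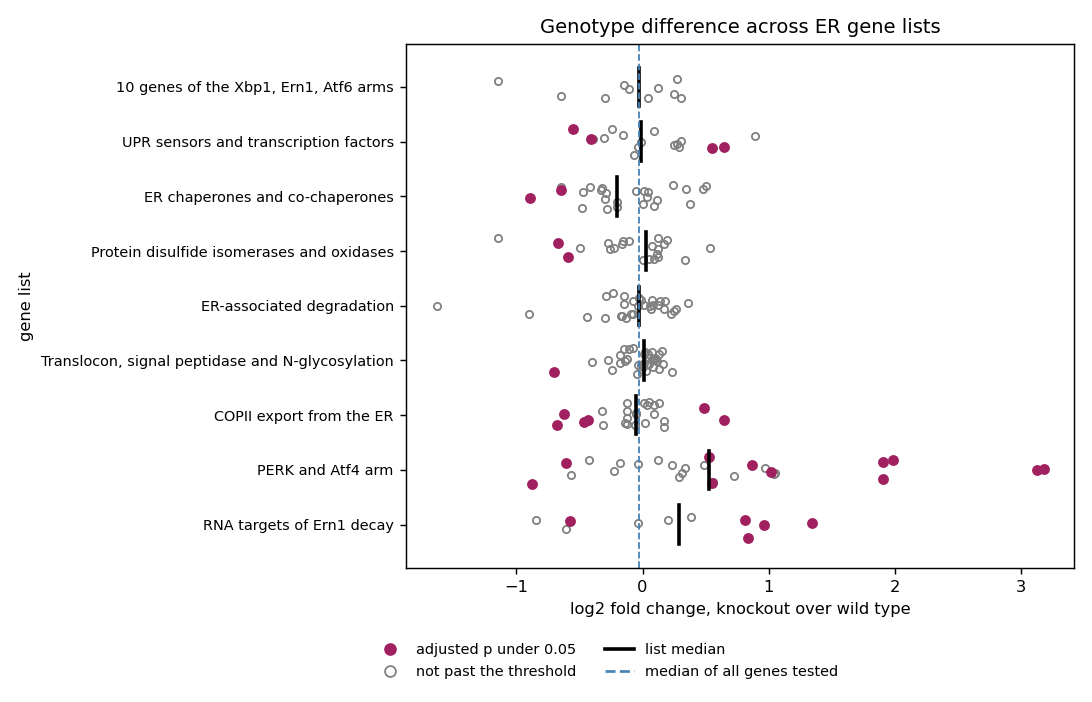
Log2 fold change of knockout over wild type for each gene tested in the 10-gene set and in 8 wider ER and stress lists (the lists as drawn include those of the 10 genes that belong to them). Filled points passed an adjusted p of 0.05 in edgeR, short black bars are list medians, and the dashed line is the median of all genes tested. The medians furthest from 0 are those of the Perk and Atf4 arm (0.53), the RNAs of Ern1 decay (0.29) and the ER chaperones (−0.21).

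Of 14 other sensors and transcription factors of the response, 2 rose and 2 fell, together 28.6% beside 20.4% of all genes, with a median of −0.05. Creb3l2, an ER-bound transcription factor cut like Atf6, was at 48.7, 63.4 and 51.4 CPM in wild type and at 92.9, 78.5 and 84.1 CPM in knockout (0.64 ± 0.14 SE, adjusted p = 0.0171 in edgeR). Eif2ak3, which encodes Perk, was at 24.8, 34.2 and 23.7 CPM and at 40.5, 39.9 and 41.0 CPM (0.55 ± 0.15 SE, adjusted p = 0.0379 in edgeR). The knockout libraries were above every wild-type library in both. Atf6b, the paralog of Atf6, fell (19.6, 20.3 and 20.2 CPM against 15.1, 16.5 and 13.7 CPM, −0.41 ± 0.12 SE, adjusted p = 0.0421 in edgeR), as did Nfya, a subunit of NF-Y (−0.55 ± 0.16 SE, adjusted p = 0.0454 in edgeR). Creb3l2 lost its call without either WT 1 or KO 1 (adjusted p up to 0.0915), Eif2ak3 without any library but WT 2 (up to 0.130), and Atf6b and Nfya without any 1 of the 6 libraries (up to 0.170).

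Of 23 other ER chaperones and co-chaperones, 0 rose and 2 fell in edgeR, as in DESeq2 and limma voom (4 at an unadjusted p under 0.05), with a median of −0.21. The share called in edgeR was 8.70%, beside 20.4% of all genes. Dnajc10, a DnaJ protein with disulfide reductase activity, was at 33.9, 39.4 and 38.3 CPM in wild type and at 24.8, 25.8 and 20.9 CPM in knockout (−0.64 ± 0.12 SE, adjusted p = 0.0131 in edgeR, 0.0642 without KO 1). Uggt2, a glycoprotein folding sensor, was low throughout and fell from 2.19 ± 0.373 to 1.18 ± 0.0940 CPM (SD, n = 3 each; −0.89 ± 0.26 SE, adjusted p = 0.0430 in edgeR, lost without any library but WT 2, up to 0.151). Of 19 other disulfide isomerases and oxidases, 0 rose and 2 fell in edgeR (10.5%) and in limma voom, with a median of 0.05. Of these 19, 6 had an unadjusted p under 0.05, and DESeq2 called 1 higher and 2 lower. Qsox1, an oxidase of the secretory pathway, was at 794, 759 and 682 CPM in wild type and at 482, 517 and 407 CPM in knockout (−0.67 ± 0.15 SE, adjusted p = 0.0198 in edgeR, lost without WT 1, KO 1 or KO 3, up to 0.1002). Pdia5 was at 53.0, 64.5 and 67.6 CPM and at 41.8, 48.8 and 32.2 CPM (−0.59 ± 0.17 SE, adjusted p = 0.0441 in edgeR, lost without any library but KO 2, up to 0.137).

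Of 28 other genes of ER-associated degradation, 0 passed in either direction in edgeR (2 at an unadjusted p under 0.05, Edem3 and Syvn1; 1 lower in DESeq2; 0 in limma voom), with a median of −0.02. Edem3, a relative of Edem1, had an adjusted p of 0.0733 (−0.44 ± 0.15 SE). Of 37 genes of the translocon, signal peptidase and N-glycosylation, only Gfpt1 passed (2.70%, beside 20.4% of all genes). It fell (41.0, 67.5 and 45.5 CPM against 29.2, 28.9 and 36.4 CPM, −0.70 ± 0.20 SE, adjusted p = 0.0422 in edgeR). Gfpt1 encodes the first enzyme of the hexosamine pathway, and its call was lost without any library but WT 1 (adjusted p up to 0.157). In this list WT 1 was the lowest wild-type library for 34 of 37 genes and WT 2 the highest for 30. Over all 14069 genes tested these counts were 4051 and 4871. The centred averages of the list, −0.22, 0.20 and 0.05 in wild type, were a fraction of those of the 7 targets.

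Of 25 genes of COPII vesicles, which carry cargo from the ER to the Golgi, 2 rose and 4 fell, with a median of −0.05. Together this is 24.0%, close to the 20.4% of all genes. Sar1b, the GTPase that starts the coat, was at 101, 99.5 and 96.2 CPM in wild type and at 151, 167 and 146 CPM in knockout (0.65 ± 0.11 SE, adjusted p = 0.00975 in edgeR), and Ergic1 also rose (0.48 ± 0.11 SE, adjusted p = 0.0187). The coat protein Sec24c was at 104, 110.0 and 116 CPM and at 67.4, 69.2 and 70.0 CPM (−0.68 ± 0.11 SE, adjusted p = 0.00679 in edgeR), and Golga2 (−0.62), Sec16a (−0.46) and Sec23a (−0.43) fell too. These 6 genes varied little within a genotype, but they are the ones that passed, which favours a small spread, so this is not a result. Over all 25 genes the median range on the log2 scale was 0.32 in wild type and 0.13 in knockout. Without KO 1, Sar1b (adjusted p = 0.0565), Sec24c (0.0559) and Golga2 (0.0683) missed the threshold in edgeR, as did Ergic1 without WT 1 or KO 1 (up to 0.107), Sec23a without WT 1, WT 3, KO 1 or KO 2 (up to 0.147) and Sec16a without any library but WT 2 (up to 0.131).

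In the Perk and Atf4 arm, which includes Eif2ak3, 9 of 27 genes rose and 2 fell, together 40.7% beside 20.4% of all genes, with a median of 0.53; its difference from the other lists was not tested. Ppp1r15a, the phosphatase subunit that restores translation, rose with a log2 fold change of 1.98 ± 0.17 SE (adjusted p = 0.00100 in edgeR) and Atf3 with 3.12 ± 0.30 SE (adjusted p = 0.00187 in edgeR), and both passed with any 1 library left out, as did Gdf15. The other 8 calls each ended without at least 1 library: Eif2ak3 as above, Ddit3, Fgf21, Vldlr, Shmt2 and Slc7a5 among those higher (adjusted p up to 0.127 in edgeR), and Cebpg and Mthfd2, the 2 lower ones (up to 0.104). Of the 10 RNAs known to be cut by Ern1, 4 rose and 1 fell, which is 5 of 10 beside 20.4% of all genes, with a median of 0.29. Cyp2e1, a cytochrome P450, was at 1580.1, 1850.0 and 2265 CPM in wild type and at 3636, 3687 and 3788 CPM in knockout (0.96 ± 0.17 SE, adjusted p = 0.0107 in edgeR, 0.0571 without KO 1). Scara3 (1.34 ± 0.34 SE, adjusted p = 0.0293, lost without any library but KO 2, up to 0.0777) and Pmp22 (0.81 ± 0.24 SE, adjusted p = 0.0478, lost without any library but KO 3, up to 0.166, and in limma voom, 0.0646) rose in edgeR, and Sparc fell (−0.58 ± 0.13 SE, adjusted p = 0.0231, lost without WT 1, KO 1 or KO 2, up to 0.0915).

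Plasma cells and pancreatic acinar cells express these ER genes strongly, so their markers were read beside them. Of the plasma cell list, 5 of 8 genes tested rose in knockout in edgeR, beside 9.8% of all genes (Igha, Igkc, Jchain, Prdm1 and Pou2af1). Igha was at 0.276, 0.231 and 0.305 CPM in wild type and at 19.4, 29.2 and 18.0 CPM in knockout, while Mzb1 stayed at or below 0.424 CPM in every library. The summed level of the list, which is mostly Sdc1, was 398, 295 and 184 CPM in wild type and 350.0, 331 and 375 CPM in knockout. Of the exocrine pancreas list, Cpa1, Pnlip and Amy2a1 were at 0 in every library. Cela1, the only gene of the list that was tested, rose in knockout (1.47 ± 0.26 SE, adjusted p = 0.0107 in edgeR) and makes up nearly all of the list's level, which summed to 4.60, 8.76 and 6.61 CPM in wild type and to 18.0, 22.9 and 14.5 CPM in knockout. The part of these cells in the levels of the 10 genes was not tested.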

How the data were processed

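Poly(A) RNA from 3 wild-type and 3 Entpd8 knockout mouse livers was sequenced after RNeasy extraction and NEBNext Ultra II library building, per the labels' protocols. Per the submitters' processing notes, Trim Galore, STAR, Salmon and the build GRCm38 were used; versions, annotation and strand setting are not stated. The authors deposited expected counts per gene, not scaled, of which 8.38% to 9.32% per library were not whole. Such estimated counts divide shared reads among similar transcripts, so close paralogs and overlapping genes are less certain. They were rounded here. Genes were filtered with filterByExpr (14069 kept), libraries were scaled by TMM, and genotype was tested with edgeR 4.0.16 (R 4.3.3; robust quasi-likelihood fit, two-sided, Benjamini-Hochberg threshold 0.05). The common dispersion was 0.0461. SE was taken from the fold change on the log2 scale and its F statistic, and 95% intervals are from the same test. CPM uses TMM-scaled totals, and log2 CPM adds a prior count of 1. Symbols and positions came from GENCODE M21 (45143 of 45706 identifiers matched, 4 list symbols through RefSeq synonyms), and promoters from RefSeq. The fit was tested on simulated counts. DESeq2 1.42.0, limma 3.58.1 (voom), other scalings, filters, a replicate block and leaving out each library were alternatives. No 2 libraries of the same genotype agreed within sampling noise, and all 6 were used.

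The 10 genes and all lists were chosen with earlier results of these data known. The genes named are the 10, Entpd8, up to 4 genes of each wider list by lowest p (mean log2 CPM of at least 0), every gene of a list that passed where 5 or fewer did, the 5 genes nearest in profile (mean log2 CPM of at least 4), and markers of lists described. Some genes that met these rules are not reported here. Sec16a and Sec23a are named beyond this rule, as members of a count given whole; Hspa5, Hsp90b1 and Alg12 were chosen after their values were seen. Of 10 marker lists, those of sinusoidal endothelium (0 of 6 tested genes passed in edgeR), stellate cell (1 of 7 lower), cholangiocyte (2 of 5 higher), T and NK cell (0 of 3) and B cell (0 of 1) are given here only. Beside them, 9.8% of all genes were higher and 10.6% lower in edgeR. Of the lists with 0, 2 endothelial and 2 T and NK genes had an unadjusted p under 0.05, and DESeq2 and limma voom called 0.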

Additional observations from a re-analysis of the deposited data

How the results depend on the processing

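Counts of calls depended most on single libraries. With 1 library left out, 0 to 1 of the 10 genes passed as higher in knockout and 0 to 2 as lower, and DESeq2 called 1 as lower. The counts over all genes ran from 385 to 1390 higher and from 218 to 1690 lower with 1 library left out, both lowest without KO 1, and a threshold of 0.1 gave 2249 lower. Over the wider ER lists, here with the 10 genes included (191 tested), they ran from 3 to 19 higher and from 0 to 10 lower, again lowest without KO 1. Replicate numbers did not pair the samples (correlation of same-numbered deviations −0.073, 0.023 and −0.087), and a fit with the replicate number as a block called 0 of the 10 genes, 807 genes higher and 661 lower over all genes, and 8 higher and 4 lower over the wider lists.

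Directions changed for 4 of the 10 genes, none of them past the threshold. Manf was at −0.028 with library totals alone and at −0.072 with the length trend removed. With 1 library left out, the log2 fold change ran from −0.26 to 0.49 for Manf, from −0.45 to 0.38 for Herpud1, from −0.39 to 0.061 for Pdia4 and from −0.15 to 0.29 for Pdia6. With the longest transcript in place of the mean length, Ern1 was at 14.8 TPM and Edem1 at 70.6 TPM in wild type. With 1 library left out, which can only keep or shrink a range, the median range of the 10 genes ran from 0.58 to 1.002 in wild type. In knockout it ran from 0.17 to 0.32. Entpd8 passed in each of the 17 alternatives that kept it (a filter of at least 1 CPM in all libraries removed it). Groups of 3 libraries allow no permutation p below 0.1, so no single value was tested that way.

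Among other genes named, calls also ended with RLE factors (Atf6b, Nfya, Pdia5, Gfpt1), with the length trend removed (Nfya, Gfpt1, Sec16a, Ddit3, Pmp22, Alg12), with library totals alone (Slc7a5, Pmp22, Hnrnpa3), with upper-quartile factors (Slc7a5, Pmp22), without the low-count filter (Atf6b, Uggt2, Ddit3, Acnat2), with the stricter filter (Slc7a5) and in limma voom (Pmp22, Alg12), at adjusted p up to 0.0861.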
